A study of Mus musculus with 2 samples.

Results

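Matrix metalloproteinases (Mmp genes), ADAMTS proteinases (Adamts genes) and tissue inhibitors of metalloproteinases (Timp genes) were examined across the cells sorted from the growing femur of vehicle- and teriparatide-treated mice. All genes whose symbol is Mmp, Adamts or Timp followed by a number, with a or b where present, were taken, which gave 46 of the 27998 genes in the count tables (23 Mmp, 19 Adamts and 4 Timp genes). The choice used no measured value. Here Mmp always stands for the metalloproteinase genes and never for a progenitor cell.

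The mice were 1 month old and carried Gli1-CreERT2 with the Cre-dependent Ai9 reporter, so tamoxifen, given for 3 days to both groups, labelled Gli1-expressing cells and their descendants with tdTomato. One group then received 3 daily injections of teriparatide, the amino-terminal fragment of parathyroid hormone, at 400 ng/g body weight, and the other received vehicle. Cells positive for tdTomato and negative for CD31, CD45 and Ter119 were sorted from the metaphysis, and 1 single-cell RNA-seq library was made per condition. With 1 library per condition no test between treatments was possible, cells are not replicates, and every 95% interval given here covers counting error only. The reporter marks what descended from Gli1-expressing cells, and per the study's methods each group held several mice. Males outnumbered females in each group, and both groups held the same number of males and the same number of females. How many of these mice gave cells to each library is not stated, and the cells carry no label of the mouse.

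Metalloproteinases use a zinc ion to cut proteins of the extracellular matrix. The collagenases open the triple helix of fibrillar collagen, the gelatinases degrade the unwound chains, membrane-bound members act at the cell surface and activate others, and the ADAMTS enzymes trim proteoglycans and procollagens. TIMP proteins bind and block the active site. In the metaphysis, Mmp13 and Mmp9 are known for removing growth plate cartilage ahead of bone formation, and Mmp14 and Mmp2 for remodelling of bone and its periosteum.

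After the limits of the study on detected genes and mitochondrial RNA, 549 of 1286 vehicle barcodes and 1217 of 2142 teriparatide barcodes were kept, with a median of 10875 and 14556 unique molecular identifiers (UMIs, 1 per captured RNA molecule). The libraries shared 2 barcode sequences. Clusters built without any of the 46 genes were named from fixed markers as chondrocyte-like osteoprogenitor-like (COP-like, 65 vehicle and 259 teriparatide cells), preosteoblast-like (preOB-like, 60 and 54), osteoblast-like (OB-like, 94 and 96), osteocyte-like (Ocy-like, 19 and 37), marrow adipocyte lineage progenitor-like (MALP-like, 154 and 94) and hypertrophic chondrocyte-like (5 and 21). Despite the CD45 and Ter119 gate, neutrophil-like (22 and 190), granulocyte-monocyte progenitor-like (GMP-like, 8 and 54), monocyte-like (22 and 149) and erythroid-like clusters (52 and 165) were also present, and 48 and 98 cells stayed unnamed. The preOB-like cluster carried pericyte markers as well, with Rgs5 at 540 and 1342 UMIs per 1000000 UMIs of the class (CPM) and Acta2 at 679 and 104 CPM. Of each pair of values, here and throughout, the first is from the vehicle library. The libraries also differed in sex, since 51.1% of the vehicle and 90.5% of the teriparatide cells of the COP-, preOB-, OB- and MALP-like classes with a call were male. Over all cells treatment and sex cannot be told apart, although the groups had the same make-up of mice. Values within each sex are given beside the called ratios of the 46 genes where they could be had.

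Mmp13 (ENSMUSG00000050578) was the most abundant of the 46 genes and lies at chr9:7272514-7283331 on the plus strand of GRCm38. It opens a run of 10 Mmp genes between positions 7272514 and 7699585 of chromosome 9, which holds Mmp13, Mmp12, Mmp1b, Mmp3, Mmp1a, Mmp10, Mmp8, Mmp27, Mmp20 and Mmp7. AP-1 factors are known regulators of collagenase and stromelysin promoters. The letters TGANTCA, with any base at N, were therefore searched on both strands in the 250 bases before each RefSeq start. RefSeq promoters were at hand for 32 of the 46 genes. The motif was found in 6.75% of all 32851 promoters and in those of 8 of the 32 genes, every one of them in the chromosome 9 run. The 27 bases around each match are shown 5′ to 3′ on the strand of the gene, with the motif in capitals, since they set side by side neighbours that share these letters and differ widely in RNA in the same cells (RefSeq, GRCm38.p6).
Mmp13 (chr9:7272469-7272495, plus strand): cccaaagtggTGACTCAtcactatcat
Mmp12 (chr9:7347320-7347346, plus strand): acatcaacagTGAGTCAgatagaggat
Mmp1b (chr9:7388103-7388129, minus strand): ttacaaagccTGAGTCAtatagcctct
Mmp3 (chr9:7445766-7445792, plus strand): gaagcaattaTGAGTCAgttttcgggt
Mmp1a (chr9:7464058-7464084, plus strand): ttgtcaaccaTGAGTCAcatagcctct
Mmp10 (chr9:7502269-7502295, plus strand): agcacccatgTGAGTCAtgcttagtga
Mmp20 (chr9:7628126-7628152, plus strand): atttgagacaTGAATCAtcacttacag
Mmp7 (chr9:7692017-7692043, plus strand): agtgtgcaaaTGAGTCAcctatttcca

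The match began 35 bases before the start of Mmp13 and 44 to 95 bases before that of the other 7 genes. At N the base was C in Mmp13, A in Mmp20 and G in the rest, and matches were not counted apart by this base. Over all kept cells Mmp13 had 26050 UMIs, Mmp3 had 100, Mmp12 had 11 and Mmp10 had 9, while Mmp1b, Mmp1a, Mmp20 and Mmp7 had 0. Mmp8, in the same run, had 5593 UMIs and no TGANTCA in its window. The Mmp13 window also held ACCACA, the letters bound by Runx2, the osteoblast determination factor. These letters stand in 14% of all promoters and in those of 6 of the 32 genes, namely Mmp13, Mmp14, Mmp1b, Mmp23, Mmp27 and Mmp7. The cyclic AMP response letters TGACGTCA occurred in 1.55% of all promoters and in 0 of the 32. The Mmp13 window is given whole (chr9:7272264-7272513, plus strand), with ACCACA and TGACTCA in capitals.
Mmp13 promoter: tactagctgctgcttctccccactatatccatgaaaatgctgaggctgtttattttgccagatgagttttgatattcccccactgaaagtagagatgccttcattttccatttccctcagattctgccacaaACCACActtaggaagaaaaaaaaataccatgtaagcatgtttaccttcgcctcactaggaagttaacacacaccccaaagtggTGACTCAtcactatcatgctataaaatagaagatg
A match describes letters only and does not show a site in use.

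Of the 46 genes, 27 had at least 50 UMIs over the kept cells, 13 had 1 to 49, and 6 had 0 (Mmp21, Mmp1a, Mmp1b, Mmp20, Mmp7 and Adamts19). Summing both libraries, 8 of the 27 were highest in the MALP-like cells, 6 in preOB-like, 4 in OB-like, 4 in Ocy-like, 3 in neutrophil-like, and 1 each in COP-like (Mmp3) and hypertrophic-like cells (Timp3). The share of all genes highest in each class is not given here, so these numbers have no baseline. A 3′ UMI count does not grow with transcript length, so length does not set the order of genes by level. Other differences between genes in capture and counting were not measured, so that order is approximate. Levels of at least 1000 CPM in a class of 1 library were reached by 6 genes, which were Mmp8, Mmp9, Mmp13, Timp1, Timp2 and Timp3.

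**Figure D1:**
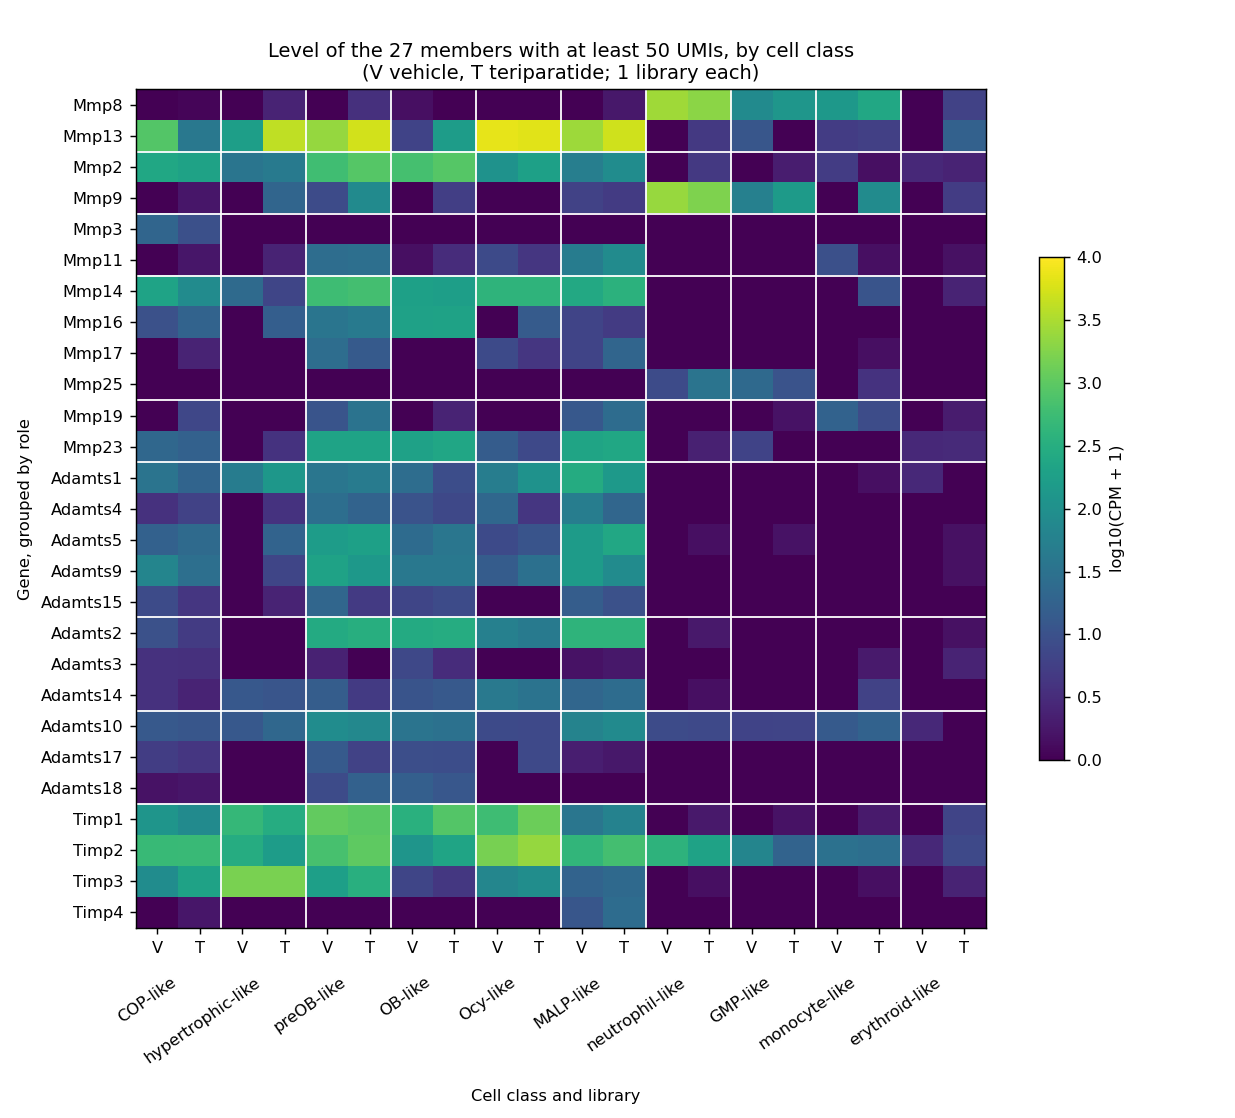
Level of the 27 genes with at least 50 UMIs (rows, grouped by role) in each cell class of the vehicle (V) and teriparatide (T) library, as log10(CPM + 1) by colour. Mmp13 is bright in Ocy-, preOB- and MALP-like cells, Mmp8 and Mmp9 in neutrophil-like cells, and Timp3 in hypertrophic-like cells.

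Among the collagenases, Mmp13, the main interstitial collagenase of the mouse skeleton, was highest by summed counts in Ocy-like cells of both libraries. It stood there at 7195 CPM (95% interval 6767–7643) after vehicle and 6723 CPM (6435–7020) after teriparatide. In the vehicle Ocy-like cells 12 of 19 held the gene, and the 3 highest held 60.3% of its UMIs. The median vehicle cell had 458 CPM in this class, 1527 CPM in the MALP-like and 683 CPM in the preOB-like class. The median teriparatide cell had 5378, 3460 and 1878 CPM in these classes. MALP-like cells had 2548 CPM (2474–2623) and 5230 CPM (5105–5357), and preOB-like cells 2344 CPM (2232–2460) and 5232 CPM (5074–5394). The intervals of the MALP- and preOB-like classes overlapped in the teriparatide and lay just apart in the vehicle library. In the hypertrophic-like cells 15 UMIs in 1 of 5 vehicle cells gave 172 CPM (96.5–284), against 4074 CPM (3924–4228) in the 21 teriparatide cells, of which 18 held Mmp13 and 2 held 1017 and 848 of the 2791 UMIs. OB-like cells had only 5.39 CPM (2.78–9.41) after vehicle and 164 CPM (149–180) after teriparatide. The erythroid-like cells, which should lack the gene, had 0 and 16.3 CPM.

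Mmp13 was found in nearly all MALP-like cells and in few COP- or OB-like cells. A UMI was seen in 148 of 154 vehicle (96.1%) and 92 of 94 teriparatide MALP-like cells (97.9%), against 0 of 52 (where 3 counts, taken as the limit that a 0 allows, would give 5.77% of cells with a UMI) and 8 of 165 erythroid-like cells (4.85%). The median MALP-like cell held 11432 and 13621 UMIs and the median erythroid-like cell 9360 and 10463, and with each cell thinned to 5400 UMIs the MALP-like shares were 96.9% and 97.5%. The 3 highest cells carried 12% and 13.4% of the Mmp13 UMIs of that class. In the COP-like cells the share was 18.5% and 10.4% at median depths of 28981 and 30828 UMIs (12.5% and 4.4% thinned), and after teriparatide the thinned share lay close to the 2.59% of the erythroid-like cells.

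**Figure D2:**
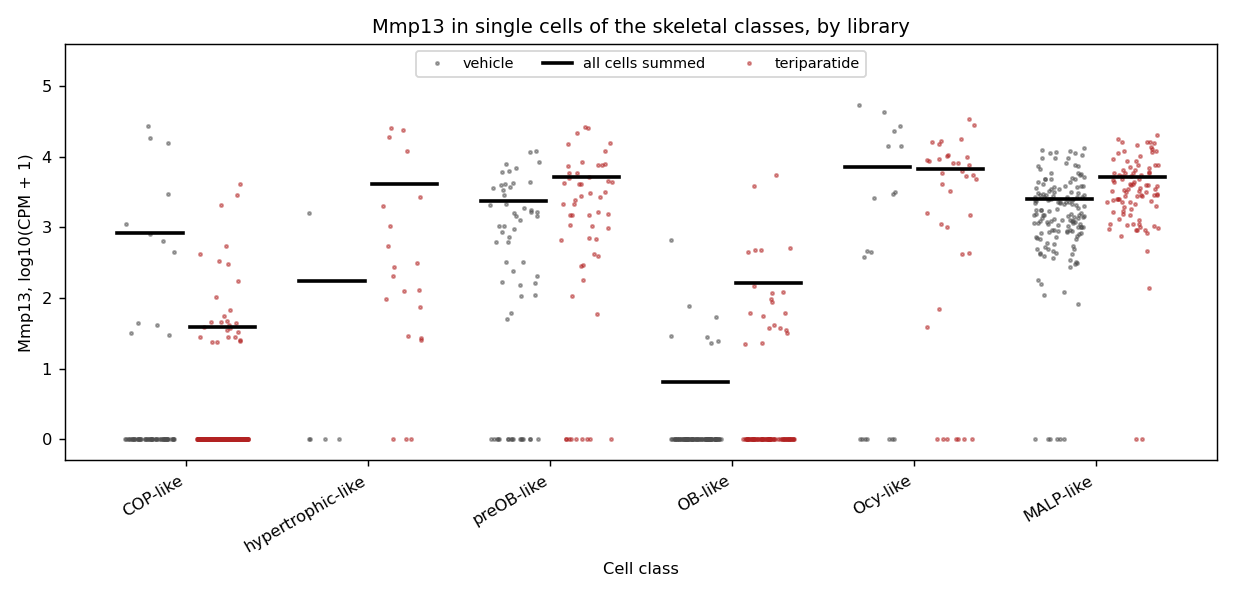
Mmp13 in every single cell of the 6 skeletal classes (points) as log10(CPM + 1), with the summed level of the class as a black line, for the vehicle and teriparatide library. Nearly all MALP-like cells lie well above 0, whereas most COP- and OB-like cells lie at 0 and a few cells set the summed level.

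Mmp8, the neutrophil collagenase, was found mainly in neutrophil-like cells, with 2712 CPM (2446–2999) after vehicle and 1983 CPM (1925–2042) after teriparatide. Monocyte-like cells had 135 and 248 CPM and GMP-like cells 82 and 125 CPM. It did not exceed 2.53 CPM in any skeletal class of either library. The other collagenase genes, Mmp1a and Mmp1b, had no UMI in the kept cells.

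The gelatinases split by cell type. Mmp2 was highest in OB-like cells, at 661 CPM (628–696) after vehicle and 873 CPM (837–909) after teriparatide, followed by preOB-like cells with 582 CPM (527–642) and 865 CPM (802–933), and the intervals of these classes overlapped. It stood at 238 and 204 CPM in COP-like and at 51.3 and 87.6 CPM in MALP-like cells. Mmp9, the gelatinase stored in neutrophil granules and made by osteoclasts, reached 2427 CPM (2176–2699) and 1676 CPM (1623–1731) in neutrophil-like cells. GMP-like cells had 54.7 and 149 CPM of Mmp9. Among the skeletal classes only the teriparatide preOB-like cells exceeded 20 CPM, with 82.1 CPM (63.4–105) against 7.14 CPM (2.32–16.7) in the vehicle library. Of the osteoclast markers, Ocstamp and Atp6v0d2 had 0 UMIs in preOB-like cells of either library, Acp5 had 1.43 and 5.05 CPM and Ctsk 264 and 277 CPM. All 6 neutrophil markers (S100a8, S100a9, Ngp, Camp, Ltf and Lcn2) were higher in the teriparatide preOB-like cells, at 6.32 to 92.2 CPM against 1.43 to 40 CPM in the vehicle cells, and their part in the Mmp9 level was not tested.

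Neutrophil-like cells fell into a pair of clusters at a finer resolution, and Mmp8 and Mmp9 were high in both. In the cluster with more Ngp, a granule gene of immature neutrophils (46858 and 41382 CPM), Mmp8 had 2735 CPM in 9 vehicle cells and 1508 CPM in 103 teriparatide cells. In the cluster with less Ngp (3949 and 9374 CPM), Mmp8 had 2685 CPM in 13 vehicle cells and 2993 CPM in 87 teriparatide cells. Summed over both libraries Mmp25, a membrane-type enzyme of leukocytes, was also highest in the neutrophil-like class, at 31.4 CPM against 10.7 CPM in GMP-like cells. The neutrophil-like cells held 1 UMI (7.14 CPM) and 73 UMIs (33 CPM) of it. In the vehicle library the order did not hold, since GMP-like cells had 4 UMIs (21.9 CPM) of membrane-type genes.

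Of the stromelysins, Mmp3 was found in COP-like cells alone among the named classes. It had 35 UMIs in 7 of 65 vehicle cells (19.3 CPM, 13.4–26.8) and 65 UMIs in 21 of 259 teriparatide cells (8.32 CPM, 6.42–10.6). All but 4 of these UMIs lay in the COP-like cluster led by Ucma, Sfrp5 and Cytl1, where the levels were 55.3 CPM (38.1–77.6) and 23.6 CPM (18.1–30.2). Mmp11 was highest in MALP-like cells (47.4 and 83.7 CPM), and Mmp10 had 9 UMIs in all.

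The membrane-type enzymes were skeletal apart from Mmp25. Mmp14, the cell-surface collagenase that activates pro-Mmp2, was highest in preOB-like cells with 581 CPM (526–640) and 637 CPM (582–695). Ocy-like cells had 396 and 392 CPM, MALP-like cells 258 and 365 CPM, OB-like cells 190 and 176 CPM and COP-like cells 207 and 83.4 CPM. Mmp16, its relative, marked OB-like cells with 196 CPM (178–216) and 204 CPM (187–222), against at most 41.7 CPM in any other class. Mmp15, Mmp17 and Mmp24 did not exceed 25.7 CPM in any class. In the remaining group, Mmp23 stood at 217 and 240 CPM in MALP-like, 208 and 211 CPM in preOB-like and 192 and 232 CPM in OB-like cells, with overlapping intervals within each library, and at 20.9 and 16.3 CPM in COP-like cells. Mmp19 reached at most 32.8 CPM. Mmp7, Mmp20 and Mmp21 had 0 UMIs, and Mmp12, Mmp27 and Mmp28 at most 21 UMIs each over the kept cells.

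Among the proteoglycanases, Adamts1, Adamts5 and Adamts9 were each at 100 CPM or more in some class, and Adamts4 was lower. Adamts5, the main aggrecanase of mouse cartilage, was nevertheless highest in MALP-like cells (153 CPM, 136–173, and 248 CPM, 221–277) and preOB-like cells (160 CPM, 132–192, and 184 CPM, 156–217), and stood at 16.5 and 23.4 CPM in COP-like cells, whose Acan, the aggrecan substrate, was at 3007 and 2978 CPM. Adamts1 had 287 CPM (263–313) and 140 CPM (120–162) in MALP-like cells and 46 and 130 CPM in hypertrophic-like cells. Adamts9 had 201 CPM (169–237) and 133 CPM (108–161) in preOB-like and 153 CPM (135–172) and 84.5 CPM (69.2–102) in MALP-like cells. Adamts4 was highest in MALP-like cells at 47.9 and 19.7 CPM. Adamts15 reached at most 20 CPM, and Adamts8 and Adamts20 had 4 UMIs and 1 UMI.

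Adamts2, which removes the amino-terminal propeptide of fibrillar procollagens, was the most abundant ADAMTS gene. It had 392 CPM (363–422) and 404 CPM (370–441) in MALP-like cells, 279 CPM (257–302) and 301 CPM (280–322) in OB-like cells and 277 CPM (239–319) and 322 CPM (284–364) in preOB-like cells. Col1a1, a substrate, stood at 138383 and 115668 CPM in OB-like cells, against 812 and 1032 CPM in the MALP-like cells, so the order of the enzyme across these classes was not that of the substrate. COP-like cells had 8.81 and 3.97 CPM of Adamts2. Of the same group, Adamts14 reached at most 41 CPM and Adamts3 at most 6.29 CPM. The COMP-cleaving Adamts7 and Adamts12 had 46 and 31 UMIs over the kept cells. In the remaining group Adamts10, which acts on microfibrils, reached 87.1 CPM in preOB-like cells, and Adamts6, Adamts13, Adamts16, Adamts17, Adamts18 and Adamts19 stayed at or below 16.4 CPM.

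Each Timp gene had its own cellular distribution. Timp2 was the most widely expressed, with 1537 CPM (1343–1752) and 2338 CPM (2170–2516) in Ocy-like, 679 CPM (620–743) and 1030 CPM (960–1103) in preOB-like, 496 CPM (464–529) and 506 CPM (490–522) in COP-like and 428 CPM (398–459) and 627 CPM (584–672) in MALP-like cells. It was also the Timp gene of neutrophil-like cells (378 and 200 CPM). Timp1 stood at 1080 and 960 CPM in preOB-like cells, 567 and 1265 CPM in Ocy-like cells and 344 and 846 CPM in OB-like cells, and at 121 CPM or less in COP- and MALP-like cells. Hypertrophic-like cells had 460 CPM (328–626) of Timp1 in 5 vehicle cells and 298 CPM (258–342) in 21 teriparatide cells. In the vehicle preOB-like cells 5 cells held 93.3% of the Timp1 UMIs and the median cell had 0, against a median of 179 CPM in the teriparatide cells.

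Timp3, the inhibitor that is held in the matrix and also blocks ADAMTS enzymes, was highest in hypertrophic-like cells, at 1540 CPM (1290–1823) in 5 vehicle cells and 1574 CPM (1481–1670) in 21 teriparatide cells. PreOB-like cells followed with 180 and 332 CPM and COP-like cells with 87 and 203 CPM, while OB-like cells had 5.84 and 3.39 CPM. Timp4 was a MALP-like gene in these cells. It had 19 UMIs (10.7 CPM, 6.45–16.7) and 31 UMIs (24.5 CPM, 16.6–34.7) there, and 6 UMIs in the teriparatide COP-like cells were the only others. Timp1, Timp3 and Timp4 lie inside the synapsin genes Syn1, Syn3 and Syn2. Exons of 13 of the 46 genes (Adamts4, Adamts7, Adamts8, Adamts9, Mmp1b, Mmp7, Mmp11, Mmp12, Mmp19, Mmp24, Mmp28, Timp3 and Timp4) overlap exons of other genes on the opposite strand, and the sources used here do not say whether the counting used strand, so these 13 counts are less certain.

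**Figure D3:**
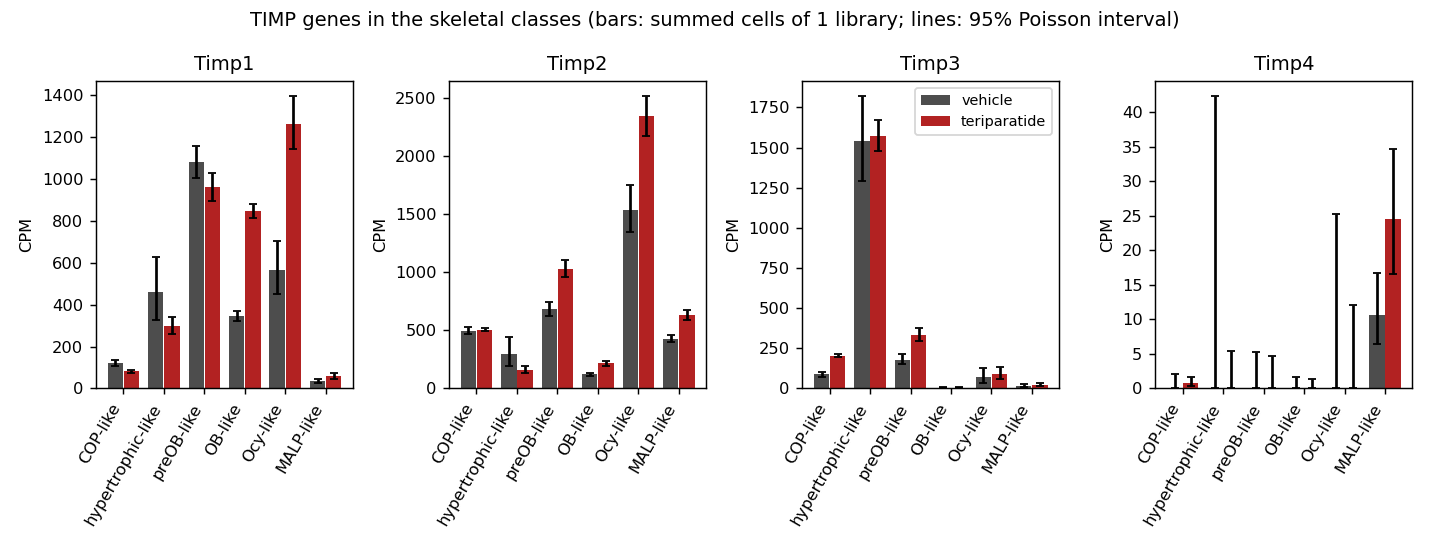
Timp1 to Timp4 in the 6 skeletal classes of the vehicle and teriparatide library, in CPM. Bars are the summed cells of a class and lines the 95% Poisson intervals; Timp2 peaks in Ocy-like, Timp3 in hypertrophic-like and Timp4 in MALP-like cells, each panel has its own scale, and a line without a bar marks a class with 0 UMIs.

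Summed over each family, the balance of enzyme and inhibitor RNA differed between classes. In OB-like cells all Mmp genes together had 1247 CPM (1201–1294) and 1658 CPM (1610–1708), and the Timp genes 469 CPM (441–499) and 1064 CPM (1025–1104). In COP-like cells the Mmp sum was 1338 and 380 CPM and the Timp sum 703 and 792 CPM. Mmp13 made up 63% (mostly from 3 cells) and 10.1% of that Mmp sum, and without Mmp13 the sum was 495 CPM (463–529) and 342 CPM (329–355), below the Timp sum in both libraries. MALP-like cells had 3156 and 6062 CPM of Mmp genes against 492 and 732 CPM of Timp genes. Mmp13 made up 80.7% and 86.3% of the Mmp UMIs in MALP-like cells, 61.4% and 73.2% in preOB-like cells, and 0.432% and 9.9% in OB-like cells. Adamts genes summed to 1135 and 1024 CPM in MALP-like, 859 and 821 CPM in preOB-like, 461 and 466 CPM in OB-like and 161 and 104 CPM in COP-like cells.

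The libraries were next compared within the COP-, preOB-, OB- and MALP-like classes, to ask which of these genes stood at another level in the cells of treated mice. A ratio was called when a gene had at least 50 UMIs in the class over both libraries and differed at least 2-fold. In COP-like cells 13 genes had enough UMIs, of which 2 were called higher and 4 lower in the teriparatide cells, against 3.47% higher and 3.07% lower (6.54% in all) of 9148 genes of all kinds. In preOB-like cells 2 of 14 were higher and 0 lower (2.56% and 5.24%, 7.80% in all, of 4487 genes), in OB-like cells 2 of 14 were higher and 1 lower (2.48% and 2.46%, 4.94% in all, of 6296), and in MALP-like cells 3 of 17 were higher and 2 lower (2.25% and 2.26%, 4.51% in all, of 7121). The median log2 ratio of teriparatide to vehicle was -0.36 in COP-like, 0.25 in preOB-like, 0.19 in OB-like and 0.50 in MALP-like cells, beside -0.21, -0.14, -0.13 and -0.07 for all genes with enough UMIs. Of the genes with enough UMIs, 4 of 13, 11 of 14, 10 of 14 and 14 of 17 had a ratio above 0 in these classes. The share of all genes above 0 is not given here, so these counts lack a baseline and are not read as a result. In all 16 ratios were called, and the same genes occur in several classes.

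**Figure D4:**
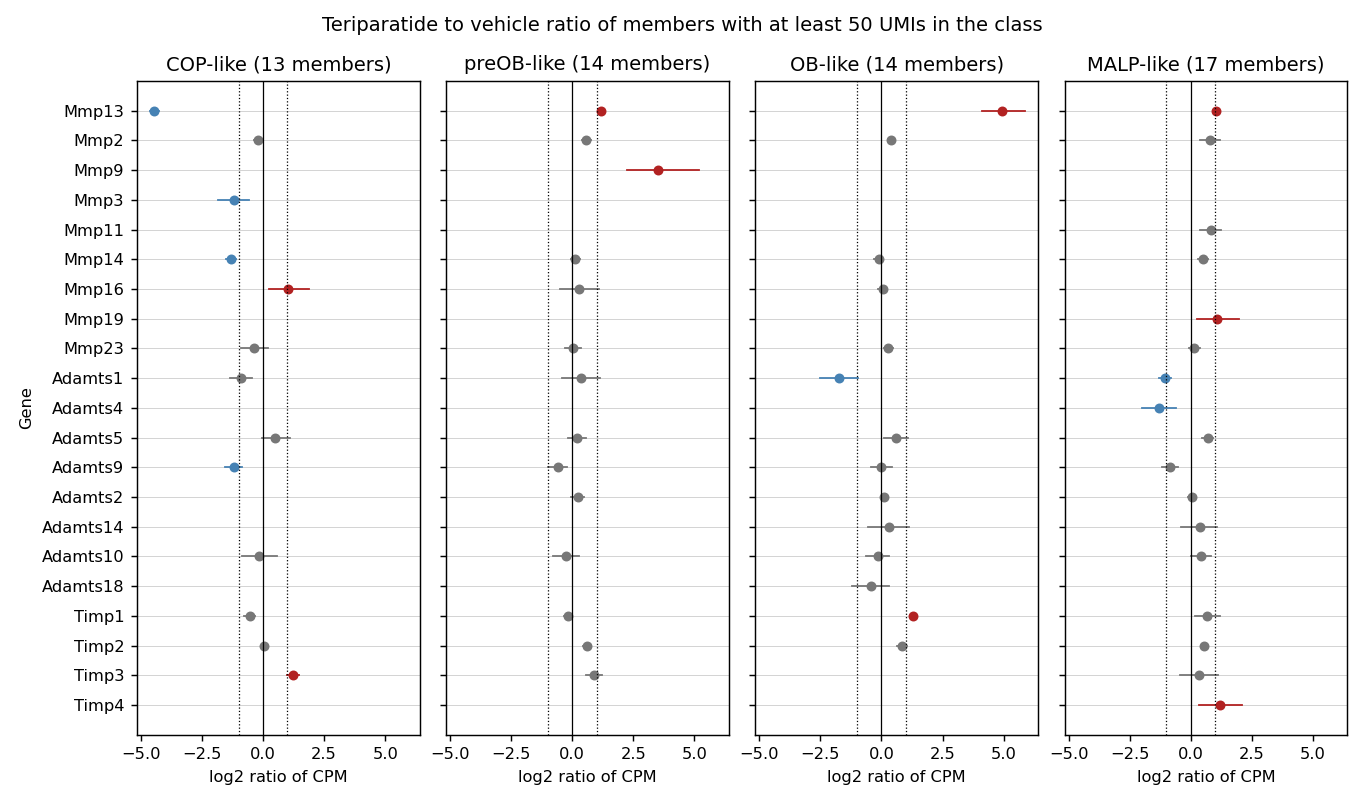
log2 ratio of CPM in the teriparatide to the vehicle library for each gene with at least 50 UMIs in the class, with 95% counting intervals. Dotted lines mark 2-fold, red genes are called higher and blue genes lower; Mmp13 lies far to the left in COP-like cells and to the right in the other classes.

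Mmp13 was called in all 4 classes. In MALP-like cells its log2 ratio was 1.04 (0.98–1.09), and the median cell had 1527 CPM after vehicle and 3460 CPM after teriparatide. The ratio stayed at least 2-fold under 5 of 9 alternatives. Among male MALP-like cells (57 and 69 cells) the ratio was 1.71 (1.63–1.80), and among female cells (69 and 8 cells) it was 0.04 (-0.13 to 0.22). In preOB-like cells the ratio was 1.16 (1.08–1.24). The 3 highest cells held 48.8% of the vehicle and 42.9% of the teriparatide UMIs there, and without them the ratio was 1.29 (1.18–1.41). Within sex the preOB-like ratio was 1.56 (1.42–1.70) among male and 2.12 (1.95–2.29) among female cells, the latter from 6 teriparatide cells. With cells classed one by one by their markers in place of clusters (the marker gate) it was 0.70, below 2-fold. Other genes of that cluster moved with it, since Adipoq had 403 and 6.32 CPM, Cxcl12 2789 and 1091 CPM and Ibsp 1963 and 6834 CPM, and their part in the result was not tested. The preOB-like values within sex leave out cells without a sex call, as 48 of 60 vehicle and 43 of 54 teriparatide cells had one. Male and female cells held 498 and 491 of the 1642 vehicle UMIs of Mmp13, and 2969 and 758 of the 4142 teriparatide UMIs. Among preOB-like cells with a sex call Mmp13 was thus higher in teriparatide cells of both sexes. In those without a call its level was lower in the teriparatide cells, and the ratio over all cells lay below both ratios within sex. The interval of the female MALP-like cells held 0, and the difference between sexes was not tested.

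The Mmp13 ratios of the other classes rested more heavily on few cells. In COP-like cells the log2 ratio was -4.46 (-4.64 to -4.28), but 3 vehicle cells with 501, 447 and 410 UMIs held most of the gene. They also held 15, 27 and 28 UMIs of Ibsp, a mineralization gene of bone and hypertrophic cartilage, and 0 of Col10a1. Their Col2a1 was low for the class, with 342, 83 and 80 of 31969, 16103 and 22446 UMIs, against 40216 CPM over the vehicle COP-like cells. Without the 3 cells of each library with the most Mmp13 UMIs the levels were 98.6 and 9.81 CPM and the ratio -3.33 (-3.74 to -2.93). Male COP-like cells gave -5.42, whereas the female cells (9 and 25) gave 0.99 (0.32–1.72). In OB-like cells the log2 ratio was 4.93 (4.11–5.89), with 187 and 168 of the 436 teriparatide UMIs in 2 cells. Without the 3 highest cells of each library it was 3.52 (2.08–5.45), and with the marker gate it was 1.62. The ratio was 2.76 in male OB-like cells, and 9.90 in female cells, where the teriparatide library held 4 cells. Dmp1, a gene of late osteoblasts and osteocytes, had 109 and 530 CPM in the same OB-like cells, and its part in the result was not tested.

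In COP-like cells Mmp14 had 207 CPM (187–229) after vehicle and 83.4 CPM (77.1–90.1) after teriparatide, a log2 ratio of -1.31 (-1.50 to -1.12). It was seen in 60 of 65 (92.3%) and 198 of 259 cells (76.4%), and with equal depth in 56.2% and 30.8%, against 0% and 0.862% of the erythroid-like cells. The ratio without the 3 highest cells of each library was -0.99 (-1.20 to -0.78). Within sex the ratio was -1.48 (-1.69 to -1.27) in male and -0.37 (-0.85 to 0.12) in female cells. Adamts9 had 65 and 28.2 CPM and a ratio of -1.21 (-1.54 to -0.87), which was -1.64 in male and 1.24 (0.10–2.62) in female cells, from 7 and 56 UMIs. Mmp3 had a ratio of -1.21 (-1.83 to -0.58), and -1.26 in male cells, while female cells held 2 and 3 UMIs. The 3 highest vehicle cells held 82.9% of its UMIs, and without the 3 highest cells of each library it was 0.41 (-0.86 to 1.95).

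Timp3 was higher in the teriparatide COP-like cells, with 87 CPM (74–102) and 203 CPM (193–213) and a log2 ratio of 1.22 (0.99–1.47). It was 1.25 (1.00–1.51) in male and 0.27 (-0.63 to 1.27) in female cells. The ratio was not alike in both COP-like clusters. In the cluster led by Ppa1 and Chad, Timp3 had 59.1 CPM (46.2–74.4) in 40 vehicle cells and 254 CPM (240–268) in 157 teriparatide cells, and in that led by Ucma and Sfrp5 it had 144 CPM (115–178) in 25 and 106 CPM (93.6–119) in 102 cells. All 5 hypertrophic markers (Col10a1, Ihh, Pth1r, Panx3 and Mef2c) were also higher in the teriparatide COP-like cells, at 44.8 to 716 CPM against 0.551 to 340 CPM, with Col10a1 at 1.65 and 158 CPM, and their part in the Timp3 result was not tested. Mmp16 had 16 and 139 UMIs in COP-like cells and a ratio of 1.01 (0.26–1.86), which was 1.36 in male and -0.30 (-2.06 to 1.80) in female cells. With each cell thinned to 5400 UMIs, 6 and 10 UMIs of Mmp16 were left and the ratio turned to -1.23.

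In preOB-like cells Mmp9 had a log2 ratio of 3.52 (2.23–5.19) from 5 and 65 UMIs, of which 1 teriparatide cell held 42. It was 1.10 (-0.77 to 3.55) in male cells, from 3 and 13 UMIs, and 7.08 in female cells, from 1 and 48 UMIs. Without the 3 highest cells of each library 1 and 9 UMIs were left, with a ratio of 2.98 (0.13–8.44). Uncalled genes of these cells with an interval above 0 were Timp3 at 0.89 (0.57–1.20), Timp2 at 0.60 (0.43–0.77) and Mmp2 at 0.57 (0.39–0.75). Mmp2 was at 1.32 (1.02–1.63) in male and -0.18 (-0.60 to 0.23) in female cells.

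In OB-like cells Timp1 was the 1 Timp gene called, with 344 CPM (320–369) after vehicle and 846 CPM (812–882) after teriparatide and a log2 ratio of 1.30 (1.18–1.42). It was seen in 79 of 94 and 91 of 96 cells, the median cell had 218 and 513 CPM, and the ratio without the 3 highest cells of each library was 1.35 (1.21–1.48). Within sex it was 0.80 (0.63–0.98) in male and 2.30 (2.05–2.55) in female cells, the latter from 4 teriparatide cells. Timp1 lies on the X chromosome, and 34.1% of the vehicle and 95.2% of the teriparatide OB-like cells with a call were male. In the vehicle library male OB-like cells had 473 CPM and female cells 285 CPM of Timp1. The part of sex in the ratio over all cells was not tested. Timp2 stood at 0.84 (0.63–1.06) in the same class. Mmp14, Mmp16 and Adamts2 of the OB-like cells had ratios of -0.12, 0.06 and 0.11, with intervals that reached no further than -0.31 and 0.26. Adamts1 was called lower, with 58 and 21 UMIs and a ratio of -1.72 (-2.51 to -0.98), and it was -0.76 (-1.91 to 0.49) in male cells and -1.25 (-2.45 to -0.13) without the 3 highest cells of each library. In female cells Adamts1 had 46 UMIs after vehicle and 0 after teriparatide, the latter from 4 cells.

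In MALP-like cells Adamts1 had 287 and 140 CPM and a log2 ratio of -1.04 (-1.29 to -0.79), which was -0.19 (-0.54 to 0.16) in male and -1.64 (-2.66 to -0.78) in female cells. Adamts4 had a ratio of -1.28 (-1.99 to -0.62), while the aggrecanase Adamts5 had 0.69 (0.45–0.93). For Adamts4 male cells gave -1.11 (-2.10 to -0.17) and female cells -0.84 (-3.16 to 0.79), the latter from 52 and 3 UMIs. Male cells gave 0.55 (0.26–0.85) for Adamts5 and female cells -1.03 (-2.69 to 0.24). Timp4 had a ratio of 1.19 with a lower bound of 0.32, but with equal depth per cell its share of positive cells was 6.92% and 7.41%, against 8.44% and 22.3% before thinning and 0% in the erythroid-like cells, and the thinned ratio was 0.03. Male cells held 1 and 27 UMIs of Timp4 (ratio 4.40). Female cells held 17 and 0, the 0 from 8 teriparatide cells, too few for a ratio or a direction. Mmp19, with 21 and 32 UMIs, had a ratio of 1.09 (0.25–1.96). Male cells gave 0.71 (-0.39 to 1.89) for Mmp19 and female cells 2.11, from 9 and 4 UMIs. Adipoq had 3164 and 1094 CPM in the MALP-like cells of the vehicle and teriparatide library, and its part in these results was not tested.

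**Figure D5:**
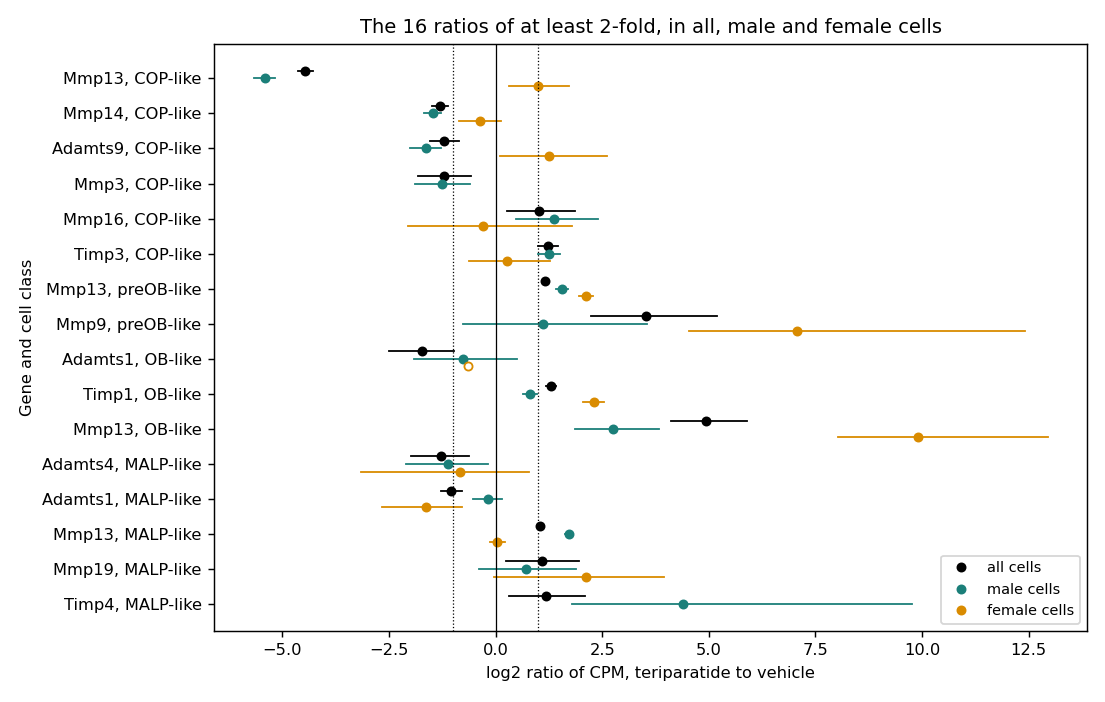
The 16 called log2 ratios (teriparatide to vehicle, with 95% counting intervals) over all cells, male cells and female cells. The open circle is a bound against 0 UMIs; Mmp13 and Adamts9 of COP-like cells fall on opposite sides of 0 in male and female cells, and Mmp13 of preOB-like cells lies on the same side in both.

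Another 47 genes of the same system were counted in the same way, taking other inhibitors, activators and clearance receptors, ADAMTS-like proteins, ADAM sheddases, other matrix proteases and substrates. Of those with enough UMIs, 2 of 23 were higher and 0 lower in COP-like, 2 of 21 higher and 1 lower in preOB-like, 1 of 21 higher and 2 lower in OB-like, and 1 of 24 higher and 0 lower in MALP-like cells, beside the 6.54%, 7.80%, 4.94% and 4.51% of all genes called in either direction in these classes. Serpine2, an inhibitor of plasminogen activators and thrombin, was higher in OB-like cells (115 and 749 CPM, log2 ratio 2.71) and in COP-like cells (48.5 and 103 CPM, log2 ratio 1.08). A2m, the general proteinase inhibitor, had 136 UMIs in vehicle and 0 in teriparatide preOB-like cells. Mrc2, a collagen uptake receptor, had 111 and 224 CPM in preOB-like cells, where Col1a1 had 10375 and 23666 CPM. As given above, Acta2 and Adipoq also differed between the libraries in the preOB-like cells, and their part in these values was not tested. Values within sex are not given for these 47 genes. Of the ADAM sheddases, ADAMTS-like genes and other matrix proteases, 0 were called in any of the 4 classes.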

How the data were processed

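Cells released from femoral metaphysis with collagenase were sorted and captured with 10x Genomics 3′ chemistry, and the authors aligned reads to mm10 and counted molecules with Cell Ranger, which the labels give as version 2.1.0 and the header of the deposited files as 3.1.0. The deposited values are raw UMI counts per gene and barcode, not normalized. Barcodes with 200 to 6000 detected genes and at most 10% mitochondrial UMIs were kept, as in the study. Seurat 5.3.0 (R 4.3.3) joined both libraries by canonical correlation on 2000 variable genes and clustered on 20 principal components at resolution 0.6, with the 46 genes, the related genes and all markers kept out of the variable genes. Clusters were named when at least 3 markers were seen in at least 10% of cells and above the mean of the other clusters, and shallow clusters stayed unnamed. The classes were rebuilt here, so cell numbers may differ from those of the study. Doublets were limited by the study's limit of 6000 genes, since Scrublet, run through scanpy 1.11.5, marked 1 of 549 and 0 of 1217 cells and so did not work as a filter.

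Counts were summed per class and library and given as CPM, with exact Poisson intervals, Clopper-Pearson intervals for shares and conditional binomial intervals for ratios, all at 95% (scipy 1.17.1), and a library at 0 UMIs was set to a floor of 3 counts. The vehicle library held 10567335 UMIs and the teriparatide library 26270041. Cells with UMIs of the Y-linked genes Kdm5d, Uty, Eif2s3y or Ddx3y but not of Xist were called male, and those with Xist alone female. Genes were named with values when they reached 100 CPM in a named class of 1 library or a called ratio, together with Mmp9, Mmp13, Mmp14 and the Timp genes, and others are given by ranges and counts. The Mmp25, Mmp11, Adamts10 and Adamts14 values, the windows of the chromosome 9 genes and the comparison within finer neutrophil-like and COP-like clusters were chosen after their values were seen. The gene set, lists and classes were chosen with earlier results of these data known, and 1 gene of the pathway lists is not reported here. Alternatives changed the scaling, mitochondrial limit, gating, sex, weighting, depth, doublets, resolution and UMI minimum, and leaving out the 3 highest cells was chosen after seeing the data. Interval coverage and calls were checked on simulated counts. Positions are from GENCODE vM21, matched by identifier for all 46 genes.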

Additional observations from a re-analysis of the deposited data

Results flagged for a closer look

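Mmp13 had opposite directions between libraries in different classes. Its log2 ratio of teriparatide to vehicle was 1.16 in preOB-like, 4.93 in OB-like and 1.04 in MALP-like cells but -4.46 in COP-like cells. With 1 library per condition the difference between classes was not tested. The COP-like and OB-like values rested on a few cells with many UMIs, as given above.

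Mmp13 was also present in cells that entered no comparison. The clusters without a name, left out for shallow depth or too few markers, had 2897 CPM in 48 vehicle cells and 1581 CPM in 98 teriparatide cells, above the 0 and 16.3 CPM of the erythroid-like cells. All 442 vehicle and 438 teriparatide UMIs lay in the cluster led by Gm26917, Cfd and Ppbp (28 and 49 cells), where 10 and 14 cells held the gene. Mmp13 stood there at 5795 and 4750 CPM, but the 3 highest cells held 80.1% of its vehicle and 69.9% of its teriparatide UMIs. By its markers this cluster was OB-like, and Bglap, Bglap2 and Serpinf1 were also among its top genes. The same top genes held Ppbp and Pf4, which served as megakaryocyte markers, and Cfd, Fabp4 and Car3, which are not bone markers. Whether the cluster mixes cells of several kinds was not tested. It stayed unnamed for its shallow depth, with a median of 1215 UMIs per cell, and so is not part of the OB-like values above. The same cluster had 1193 and 521 CPM of Timp1, with 91.2% and 37.5% of its UMIs in the 3 highest cells.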

How the results depend on the processing

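No paired analysis was possible because each condition had 1 library. Of the 16 called ratios, 13 kept their direction and 3 stayed at least 2-fold under each of the 8 or 9 alternatives that gave a value, leaving out the highest cells not included. Those that turned were all of COP-like cells. Mmp16 was -0.30 in female cells and -1.23 with cells thinned to 5400 UMIs, Adamts9 was 1.24 and Mmp13 0.99 in female cells. Without the 3 highest cells of each library Mmp3 of COP-like cells, 1 of the 3, also turned, to 0.41, and Mmp14 of COP-like and Adamts1 of MALP-like cells fell below 2-fold, at -0.99 and -0.87.

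Counts of called genes moved as follows. In COP-like cells the number called higher was 1 with the marker gate, in female cells, with equal weight per cell and after thinning, and the number lower was 0 in female cells. The median there was -0.66 with a mitochondrial limit of 20% and -0.09 in female cells. In preOB-like cells the number higher was 0 with the gate, 4 in female cells, 1 after thinning and 4 with no UMI minimum, the number lower was 1 in female cells, 1 with a minimum of 20 UMIs and 4 with none, and the median was 0.58 in male cells. In OB-like cells the number higher was 1 in male cells, 4 in female cells and 5 with no minimum, and the number lower was 0 in male cells, in female cells and after thinning, 2 with a minimum of 20 UMIs and 3 with none. In MALP-like cells the number higher was 1 with the gate, 0 in female cells and 5 with no minimum, the number lower was 1 with the median ratio of all genes as the scale and with equal weight per cell and 0 in male cells, and the median was 0.02 in female cells. The cause was not tested. Over all named ratios and alternatives, 344 values moved by less than their counting interval, 100 by more and 4 reversed. Of the 344, 50 came from leaving out the Scrublet doublets, which removed 1 cell and so could change little, and 50 from the finer resolution. Female cells alone gave 11 values that moved by less, 34 by more and 3 reversed. Male cells alone gave 26 that moved by less and 24 by more. Levels and class order moved as well. For the highest against the next class, 96 values were counted as the same and 14 as moved, 11 of these with the marker gate. For levels, 35 were counted as the same and 19 as moved, 11 of these with equal weight per cell. For shares of cells, 14 were counted as the same and 14 as moved, with cells thinned to equal depth.

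Depth limits genes near 0. In the vehicle hypertrophic-like cells the floor of 3 counts stands at 34.5 CPM, and the Poisson interval of 0 UMIs reaches 42.4 CPM. Female teriparatide cells numbered 4 in OB-like, 6 in preOB-like and 8 in MALP-like cells. Of the 4 classes compared between libraries the preOB-like class is the least certain, since the marker gate shared 49.1% of its cells. Among the other named classes the gate shared only 27.4% of the GMP-like cells. It shared 96.2% of the hypertrophic-like cells, but it called 82 cells hypertrophic-like, of which 30.5% lay in that class.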
